A study of Mus musculus with 15 samples.

Results

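The peaks described here are the regions called as enriched for H3K4me1 or for H3K27ac in D-EPSCs, a type of expanded potential stem cell. All peaks of the D-EPSC list of each mark were taken and then split by whether they shared 1 bp or more with the other mark. This gave 135533 of the 439369 peaks of the series. Of the 102751 H3K4me1 peaks, 22801 overlapped H3K27ac and 79950 lay alone. Of the 32782 H3K27ac peaks, 27337 overlapped H3K4me1 and 5445 lay alone. The 2 overlapping classes describe the same places seen from either mark, and their numbers differ because a wide peak of one mark can hold several peaks of the other.

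The series profiled both marks by ChIP-seq in mouse embryonic stem cells and in 2 types of expanded potential stem cell. The D-EPSCs were of the 129SV strain and had been converted from the J1 embryonic stem cell line, so all values come from descendants of 1 line. They were kept in N2B27 base medium with 5% KSR (a serum replacement), LIF at 1000 units/ml, CHIR99021 at 3 µM (an inhibitor of GSK3, which activates the Wnt pathway), dimethindene maleate (DiM, a histamine receptor antagonist) at 2 µM and minocycline hydrochloride (MiH, an antibiotic that also inhibits PARP1) at 2 µM, without feeder cells. The 2 samples per mark and the 1 input sample contributed to 1 deposited peak list per mark, so no value below has a replicate check.

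H3K4me1 is laid down by the methyltransferases MLL3 and MLL4 and marks enhancers, whether active or only primed, as well as the flanks of active promoters, where nucleosomes nearer the start site carry H3K4me3 in its place. H3K27ac is laid down by p300 and CBP and marks enhancers and promoters in use. In pluripotent cells a region with both marks is commonly read as an active element, a distal region with H3K4me1 alone as a primed or poised one, and CpG-rich promoters of developmental regulators are known to be held silent by Polycomb. RNA, H3K4me3, H3K27me3 and DNA accessibility were not used here, so these classes are positions of 2 marks and nothing more.

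Marker genes were used to check that the lists came from pluripotent cells. These markers cannot tell D-EPSCs from embryonic stem cells or from the other type of expanded potential stem cell. All 10 pluripotent stem cell markers had both marks within 1 kb of the start site, a state found at 34.5% of all 22350 protein-coding genes. Among them were Pou5f1, with 12.3 kb under both marks from 10 kb before to 10 kb after the gene, Nanog with 11.8 kb, Dppa5a with 18 kb and Sox2 with 3.25 kb. None of 10 fibroblast feeder markers had H3K27ac within 1 kb of the start site. Of these, 5 (Col1a1, Col1a2, Thy1, Twist2 and Pdgfrb) had H3K4me1 only, and Lum, Dcn, Postn, Fap and Col3a1 had neither mark there. Short co-marked stretches lay elsewhere in the collagen loci, with 1.93 kb at Col3a1, 1.03 kb at Col1a1 and 0.683 kb at Col1a2.

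The bases just before 6 start sites are shown because the marks covered them in 3 different ways. Which mark lies on these bases is not the class of the peak: the H3K27ac peaks at Etv5, for example, belong to a co-marked domain. Each line gives the 150 bases before the annotated start site on the strand of the gene in mm9, with every CpG in capitals. All 150 bases of Etv5 (chr16:22439793-22439942, minus strand), which encodes an ETS transcription factor of the FGF/ERK pathway, and of Rpl23 (chr11:97643752-97643901, minus strand), which encodes a ribosomal protein, lay under H3K27ac and none under H3K4me1.
Etv5: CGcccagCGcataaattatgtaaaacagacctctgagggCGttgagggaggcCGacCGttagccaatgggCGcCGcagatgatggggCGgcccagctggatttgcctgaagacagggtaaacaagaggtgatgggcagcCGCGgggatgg
Rpl23: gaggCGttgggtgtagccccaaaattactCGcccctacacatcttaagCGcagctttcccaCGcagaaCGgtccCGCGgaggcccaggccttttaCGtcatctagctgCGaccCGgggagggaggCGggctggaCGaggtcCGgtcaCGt
The windows of Lhx1 (chr11:84338924-84339073, minus strand), a homeobox regulator of early mesoderm, and of Nes (chr3:87774850-87774999, plus strand), which encodes the neural progenitor filament nestin, lay under H3K4me1 along all 150 bases and held no H3K27ac.
Lhx1: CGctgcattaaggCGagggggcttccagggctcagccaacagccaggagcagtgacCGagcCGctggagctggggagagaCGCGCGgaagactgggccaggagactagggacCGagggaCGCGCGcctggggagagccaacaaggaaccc
Nes: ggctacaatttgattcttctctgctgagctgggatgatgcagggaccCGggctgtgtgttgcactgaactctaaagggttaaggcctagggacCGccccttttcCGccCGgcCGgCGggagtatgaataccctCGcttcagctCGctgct
The windows of Dppa5a (chr9:78215985-78216134, minus strand) and Pou5f1 (chr17:35642832-35642981, plus strand), which are expressed in pluripotent cells, lay under both marks throughout.
Dppa5a: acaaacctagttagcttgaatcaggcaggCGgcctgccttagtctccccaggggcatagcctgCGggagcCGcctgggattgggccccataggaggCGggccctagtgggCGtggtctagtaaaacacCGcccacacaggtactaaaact
Pou5f1: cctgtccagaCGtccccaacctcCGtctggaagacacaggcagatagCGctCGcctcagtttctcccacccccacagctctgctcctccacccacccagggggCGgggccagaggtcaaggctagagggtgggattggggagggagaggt
The number of CpGs was 10 at Etv5, 14 at Rpl23, 11 at Lhx1, 8 at Nes, 6 at Dppa5a and 5 at Pou5f1. GC content was 58 to 68%. The 6 windows are examples chosen after their values were seen, and no contrast in CpG is drawn from them. Over all start sites the median observed over expected CpG was 0.774 with both marks and 0.594 with H3K4me1 only.

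H3K4me1 peaks with H3K27ac were the wide ones. Their median width was 2505 bp (95% interval of the median 2474 to 2539 bp), against 942 bp (936 to 948 bp) for H3K4me1 alone, a difference of 1.41 on the log2 scale. The co-marked class held 22.2% of the H3K4me1 peaks (exact binomial 95% interval 21.9 to 22.4%) but 44% of the H3K4me1 bases, or 82.5 Mb, and its widest peak reached 82095 bp. H3K27ac peaks behaved alike on a smaller scale. Their median width was 956 bp (942 to 969 bp) with H3K4me1 and 493 bp (483 to 506 bp) alone, a difference of 0.96 on the log2 scale. H3K27ac alone held 16.6% of the H3K27ac peaks (16.2 to 17%) and 7.34% of the H3K27ac bases, and no such peak was wider than 3508 bp. All intervals cover counting error over peaks and not the spread between samples, and neighbouring peaks are not independent.

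**Figure D1:**
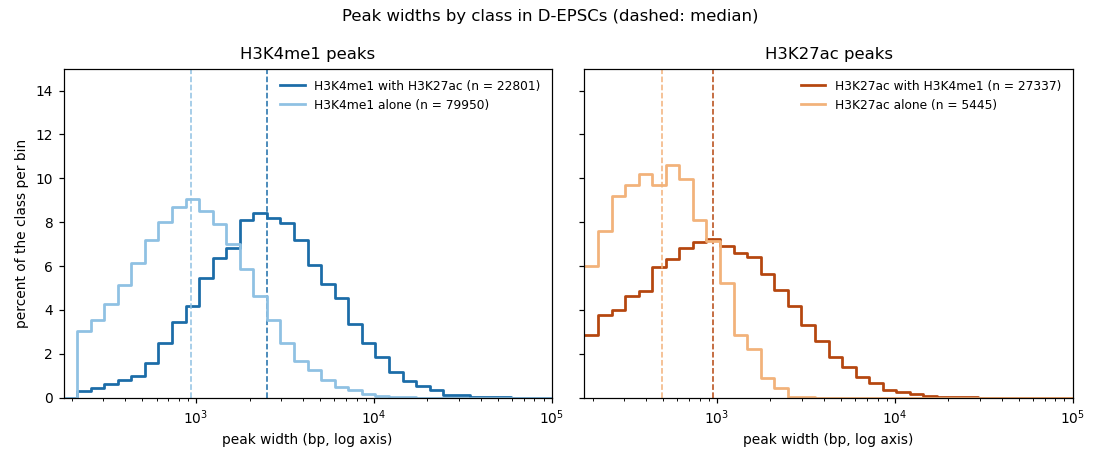
Distribution of peak widths in D-EPSCs, with width in bp on a log axis and the percent of the class per bin on the other axis. Solid lines give the classes and dashed lines their medians: 2505 and 942 bp for H3K4me1 with and without H3K27ac, and 956 and 493 bp for H3K27ac with and without H3K4me1.

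The co-marked share rose with width at each step. It was 3.87% for H3K4me1 peaks under 500 bp, 8.79% from 500 to 1000 bp, 19.4% from 1000 to 2000 bp, 40.6% from 2000 to 4000 bp and 68.6% at 4000 bp or more. For H3K27ac it was 71.1%, 79.1%, 91%, 99% and 100% over the same steps, so that none of the 1809 H3K27ac peaks of 4000 bp or more lacked H3K4me1. A wider peak has more bases with which to meet the other mark, so part of this slope is built into a 1 bp rule. The rule mattered for the shares themselves. When at least 50% of a peak had to lie under the other mark, 8.57% of H3K4me1 peaks and 71.1% of H3K27ac peaks counted as co-marked. When a peak within 1 kb was enough, 29.8% and 93.1% did.

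The 2 marks were nested rather than side by side over most co-marked sites. Of the co-marked H3K27ac peaks, 17743 (64.9%) lay wholly inside 1 H3K4me1 peak, and 23312 (85.3%) had at least 50% of their bases under H3K4me1. The reverse arrangement, an H3K4me1 peak wholly inside an H3K27ac peak, was found for 1327 co-marked H3K4me1 peaks (5.82%). In all 34.7 Mb lay under both marks, which was 78.1% of the H3K27ac bases and 18.5% of the H3K4me1 bases. A single H3K4me1 peak held 2 or more H3K27ac peaks in 4007 cases (17.6%), and these had a median width of 6228 bp. The most H3K27ac peaks in 1 H3K4me1 peak was 11.

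Distance to the nearest protein-coding start site set H3K27ac alone apart from the other classes. Within 1 kb of a start site lay 40.6% of H3K27ac-alone peaks (2210 peaks, 39.3 to 41.9%), 17.8% of H3K27ac peaks with H3K4me1 (17.3 to 18.3%), 25.9% of H3K4me1 peaks with H3K27ac (25.3 to 26.5%) and 16.5% of H3K4me1-alone peaks (16.2 to 16.8%). The median distance was 10.9 kb for H3K27ac alone and 15.6 to 19.6 kb for the other classes. Between 25.5 and 28.6% of every class lay over 50 kb away. Among peaks that lay within 10 kb of a start site without covering it, 79.9% of H3K27ac-alone peaks were on the downstream side, against 42.4% of co-marked H3K4me1 peaks, 58.5% of H3K4me1-alone peaks and 54% of co-marked H3K27ac peaks. Exons took 23.1% of the middles of H3K27ac-alone peaks and 5.29 to 9.01% of those of the other classes.

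Both start-site differences depended on how overlap and width were handled. H3K4me1 peaks with H3K27ac were at start sites more often than H3K4me1-alone peaks by 9.38 percentage points under the 1 bp rule, but the difference was -1.72 when at least 50% of the peak had to lie under H3K27ac. Split by width, the order also turned over. From 500 to 1000 bp, 40.1% of co-marked and 13.4% of lone H3K4me1 peaks were at start sites, whereas at 4000 bp or more the shares were 26.5% and 36.1%. For H3K27ac, lone peaks were nearer start sites in each width step that held any, with 37% against 8.39% under 500 bp and 50.1% against 27% from 1000 to 2000 bp. That difference, -22.8 percentage points for co-marked minus lone peaks, became 21.8 when H3K4me1 within 1 kb counted as co-marked.

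**Figure D2:**
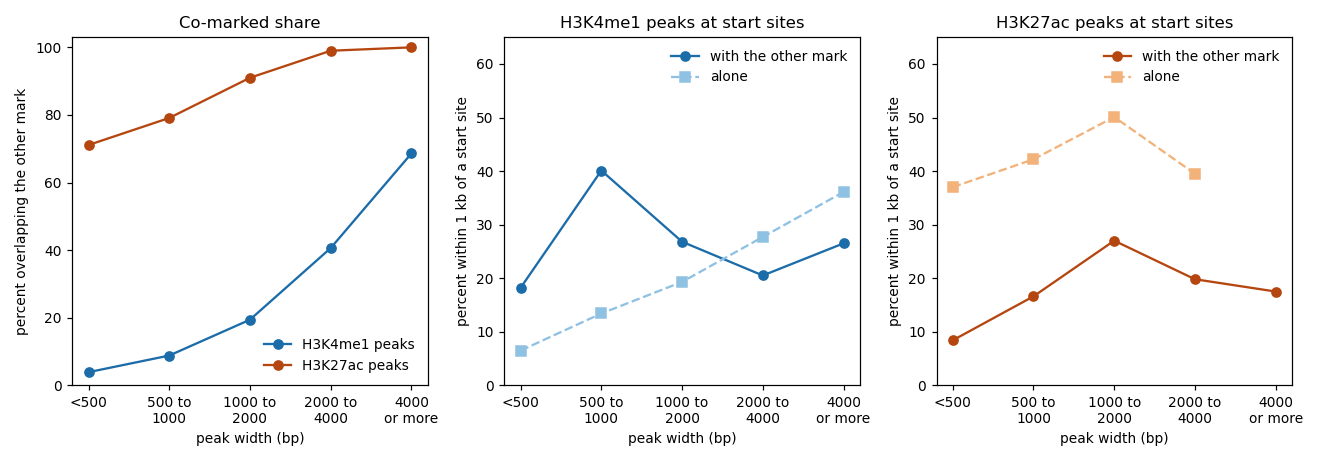
Left, percent of peaks that overlap the other mark against peak width in bp. Middle and right, percent of H3K4me1 and of H3K27ac peaks within 1 kb of a start site, with the other mark (solid) and alone (dashed). The H3K4me1 lines cross between the 1000 to 2000 bp and the 2000 to 4000 bp steps, and lone H3K27ac stays above co-marked H3K27ac, with 43 lone peaks in its last step and none at 4000 bp or more.

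At start sites, lone H3K27ac peaks sat in a gap of H3K4me1. Of the 2210 H3K27ac-alone peaks at start sites, 98.6% had H3K4me1 within 1 kb, at a median gap of 188 bp, and 88.5% (1955 peaks) had it within 1 kb on both sides. These peaks were short (median 534 bp) and rich in CpG, with a median of 9.43 CpGs per 100 bases and a GC content of 67.4%, against 5.38 and 56.4% for co-marked H3K27ac peaks at start sites. The 3235 H3K27ac-alone peaks over 1 kb from a start site lay further from H3K4me1. Their median gap to H3K4me1 was 2725 bp, 8.5% were flanked on both sides within 1 kb, and 892 (27.6%) lay over 10 kb from any H3K4me1 peak. Their median of 0.975 CpGs per 100 bases was near the 1.16 of distal co-marked H3K27ac peaks. Of these distal peaks 30.8% still had H3K4me1 within 1 kb and 61.3% within 5 kb.

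Seen from the start sites, 7703 of 22322 distinct positions (34.5%, 33.9 to 35.1%) had peaks of both marks within 1 kb. H3K4me1 only was found at 7278 (32.6%, 32 to 33.2%), H3K27ac only at 182 (0.815%, 0.702 to 0.942%) and neither at 7159 (32.1%, 31.5 to 32.7%). Of 2648 start sites with a lone H3K27ac peak nearby, 2545 (96.1%) also had an H3K4me1 peak within 1 kb. They count here among the start sites with both marks although the lone peak shared no bases with H3K4me1. At start sites with both marks the marks took turns. H3K4me1 covered 72.7% of positions 1 kb upstream, 18% of the first bases of genes and 76% of positions 1 kb downstream. H3K27ac covered 21.6%, 69% and 19% of the same positions. H3K4me1 extended further into the gene than away from it, with 72.5% covered 2 kb downstream and 41.6% covered 2 kb upstream. Start sites with H3K4me1 only had no such gap, since 61.5% of first bases were under H3K4me1.

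**Figure D3:**
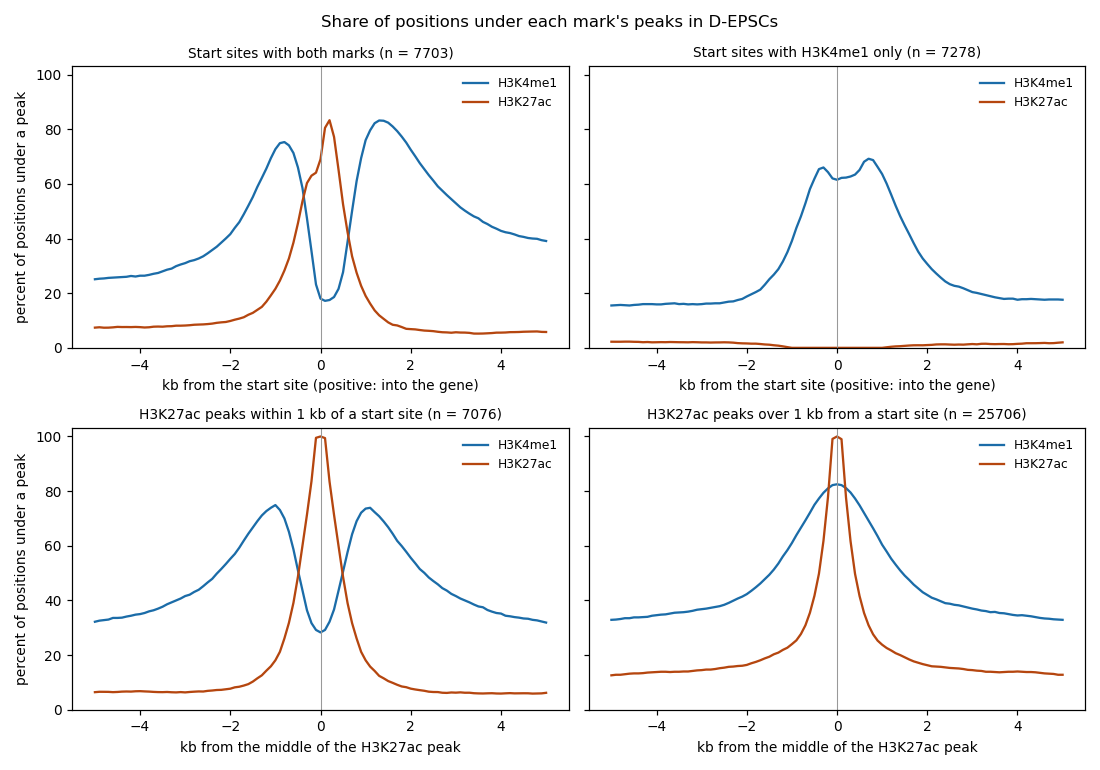
Percent of positions under an H3K4me1 or an H3K27ac peak, by distance in kb from start sites (top) or from the middle of H3K27ac peaks (bottom). H3K4me1 dips to 18% at the first base of genes with both marks but not at start sites with H3K4me1 only (61.5%), where H3K27ac is 0 within 1 kb by definition, and it dips to 28.3% at the middle of H3K27ac peaks near start sites while reaching 82.5% at the middle of those further away.

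These patterns differed with CpG content. Start sites were called CpG-high where the observed over expected number of CpGs was at least 0.6. Of 10192 CpG-high start sites, 61.9% had both marks (60.9 to 62.8%), 35% had H3K4me1 only, 1.52% had H3K27ac only and 1.65% had neither. Of 12130 CpG-low start sites, 11.5% had both (11 to 12.1%), 30.6% had H3K4me1 only and 57.6% had neither. At CpG-high start sites with both marks, H3K4me1 was on 8.17% and H3K27ac on 72.5% of first bases. At CpG-low start sites with both marks the values were 62.3% and 53.1%, so the gap was found mainly at CpG-rich start sites. CpG-high start sites with H3K4me1 only had H3K4me1 on 50.8% of first bases.

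The gene lists fell into 3 patterns at the start site: both marks, H3K4me1 alone, and neither. They are read against the shares over all 22350 protein-coding genes, which were 34.5% for both marks, 32.6% for H3K4me1 only, 0.814% for H3K27ac only and 32.1% for neither. The lists share some members, such as Stat3, Fgf4, Dnmt3a and Tfap2c. Counts are descriptions, and what the marks mean for expression was not measured.

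Genes of the pluripotency network, of several signalling pathways and of basic cell functions carried both marks more often than the 34.5% of all genes. The lowest share among these lists was 52%, for FGF and ERK genes. Both were found at 22 of 26 core and naive pluripotency factors. These included Klf2, a Krüppel-like factor, with 19.3 kb under both marks within 10 kb of the gene, Dppa5a with 18 kb, Fgf4, the FGF ligand of these cells, with 15.1 kb, and Tfcp2l1 with 14.3 kb. The exceptions included Tfap2c and Nr5a2, with H3K4me1 only, and Esrrb, with neither mark at the outermost annotated start site despite 40.6 kb under both marks in the locus. Both marks were also found at 13 of 16 Nodal and TGF-beta genes (Nodal, 10.6 kb) and 9 of 13 LIF and STAT3 genes (Socs3, a feedback inhibitor, 9.37 kb). Of 25 FGF and ERK genes 13 had both, led in the locus by Etv5 with 43.1 kb and Spred2, an inhibitor of the pathway, with 21.1 kb. Fgfr2 had 41.3 kb under both marks, but its annotated locus spans 3029 kb, and its start site had H3K27ac only, as did those of Spry2, Etv1 and Spred1. Of 23 Wnt genes 13 had both (Tcf7l1, a repressor of Wnt targets, 13.6 kb), and the other 10 had H3K4me1 only.

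Chromatin regulators and housekeeping genes were alike in that respect. Both marks were present at 16 of 20 Polycomb and Trithorax subunits, 15 of 21 histone acetylation enzymes and readers, 7 of 11 DNA methylation enzymes, 19 of 23 glycolysis and TCA cycle enzymes, 13 of 15 translation initiation factors and 32 of 36 cytoplasmic ribosomal proteins. They differed in extent. Kat2b, an acetyltransferase, had 28.9 kb under both marks, Tet2, which oxidises methylcytosine, had 25.5 kb, and Jarid2, a cofactor of Polycomb repressive complex 2, had 25.3 kb. The median over the ribosomal protein genes was 1.56 kb. At least 5 kb under both marks was found at 14 of 26 core and naive factors (53.8%) and 5 of 11 DNA methylation enzymes (45.5%), but at 1 of 36 ribosomal proteins (2.78%), beside 7.6% of all genes. The bases under both marks can grow with the length of the locus, whose median was 29.1 kb for the core and naive factors, 65.7 kb for the DNA methylation enzymes and 23.8 kb for the ribosomal proteins. The ribosomal and pluripotency lists had similar shares with both marks within 1 kb of the start site, but not at the first base. H3K27ac was on the first base of 88.9% of the ribosomal and 42.3% of the core and naive genes, beside 24.4% of all start sites. H3K4me1 was on 8.33% and 30.8%, beside 26.3% of all start sites, so the core and naive share was near that of all.

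Regulators of other lineages, and formative and primed epiblast genes, mostly carried H3K4me1 without H3K27ac at the start site. H3K4me1 only was found at 19 of 20 mesoderm and definitive endoderm regulators, 21 of 22 neural and ectoderm regulators, 36 of 39 Hox genes, 13 of 15 trophoblast regulators, 11 of 15 primitive endoderm regulators and 13 of 18 formative and primed epiblast genes, beside 32.6% of all genes. Both marks were found at none of the mesoderm and trophoblast lists and at 1 gene each of the neural list (Zic5) and the primitive endoderm list (Sparc, which encodes a matrix protein). The formative and primed list was mixed. Both marks were at 4 of its 18 start sites (Nodal, Otx2, Sall2 and Lin28b; 2 with windows of 500 bp), H3K27ac only was at Zic2, and 6 of 18 loci (33.3%) had at least 5 kb under both marks, beside 7.6% of all genes. Among the trophoblast genes H3K27ac lay away from the start site at Tfap2a, with 6.36 kb under both marks in the locus, Tead4, the effector of Hippo signalling, with 5.45 kb, and Tfap2c with 4.89 kb. Cdx2, Eomes and Gata2 had 0 kb under both marks.

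The lists also differed at the first base among CpG-high genes. H3K4me1 was on the first base of 16 of 18 CpG-high neural genes, 10 of 11 CpG-high mesoderm genes and 16 of 21 CpG-high Hox genes, and of 6 of 8 trophoblast, 3 of 5 primitive endoderm and 6 of 13 formative and primed genes. It was on none of 33 CpG-high ribosomal protein genes, none of 12 CpG-high histone acetylation genes and 1 of 14 CpG-high translation initiation factors. H3K27ac was on the first base of 31 of those 33, 11 of those 12 and 12 of those 14. Other lists varied, with H3K4me1 on 7 of 22 CpG-high FGF and ERK, 4 of 20 Wnt and 3 of 17 Polycomb and Trithorax genes. It was on 2 of 10 LIF and STAT3, 1 of 11 core and naive, 1 of 16 glycolysis and TCA cycle, 0 of 11 Nodal and 0 of 5 DNA methylation genes. Over all start sites of any CpG content, H3K4me1 was on 26.3% and H3K27ac on 24.4% of first bases. These shares are not a like background for CpG-high genes. Of all CpG-high start sites, 61.9% had both marks, with H3K27ac on 72.5% and H3K4me1 on 8.17% of first bases. Another 35% had H3K4me1 only, with H3K4me1 on 50.8% of first bases. H3K27ac was therefore more frequent on first bases of CpG-high start sites than over all start sites. CpG content was not matched further, and the median observed over expected CpG was 0.628 in the Hox list, 0.633 in the mesoderm list, 0.73 in the neural list, 0.809 in the ribosomal list and 0.863 in the translation list. The median extent of H3K4me1 from 10 kb before to 10 kb after the gene was 8.72 kb for the mesoderm list, 9 kb for primitive endoderm, 11 kb for the neural list, 11.4 kb for Hox genes and 12.2 kb for trophoblast regulators. It was 10.4 kb for ribosomal proteins, 13.6 kb for translation initiation factors, 15.6 kb for glycolysis and TCA cycle enzymes and 19.7 kb for histone acetylation genes, and it can grow with the length of the gene.

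Germline genes and genes outside the cell type completed the range. Of 15 germline genes 10 had H3K4me1 only and 2 had both marks, Dazl and Tex19.1. All 11 matched two-cell stage genes, 4 of them members of the Zscan4 family, had neither mark. The study reports, from signal tracks and not called peaks, more H3K27ac near promoters of Zscan4c/d/f and Usp17le in expanded potential than embryonic stem cells. These genes have near-identical copies in which short reads are hard to place, and the part of that in the absence of peaks was not tested. Of 153 olfactory receptor genes 146 had neither mark, and 1, Olfr90, had both. No gene of the two-cell and olfactory lists was CpG-high, and 57.6% of all CpG-low start sites had neither mark.

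**Figure D4:**
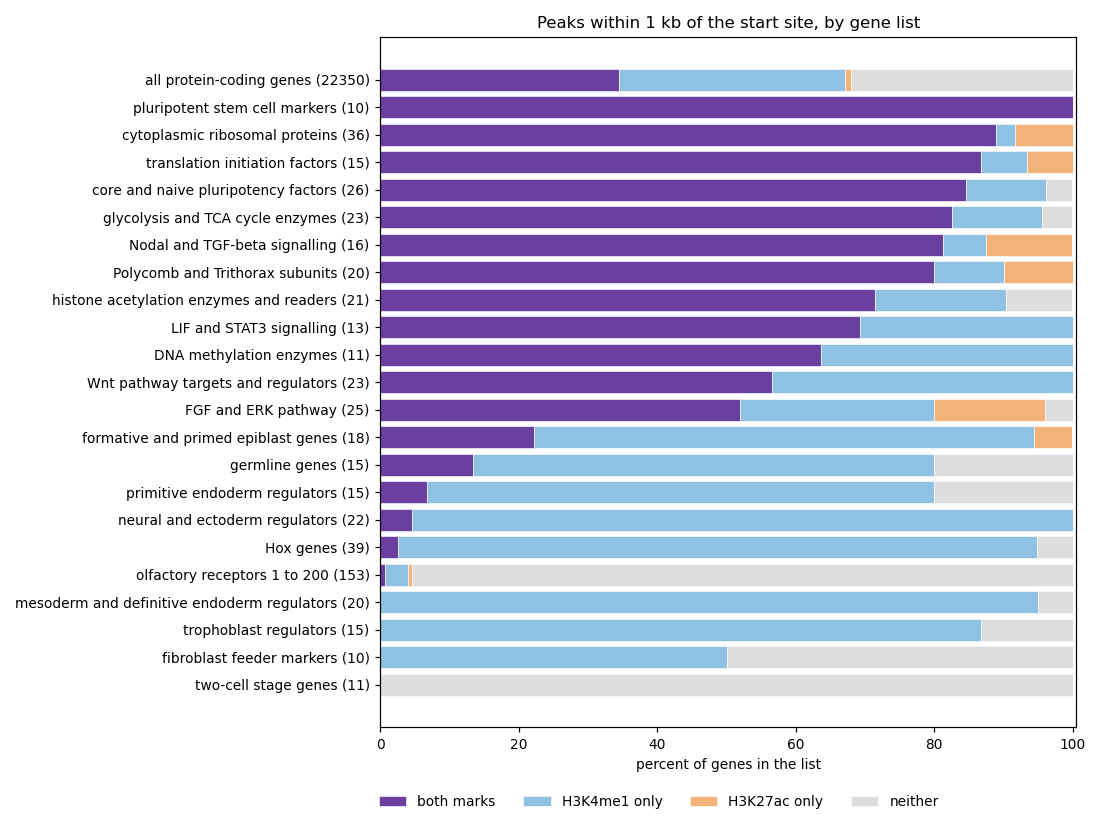
Percent of the genes of each list with both marks, H3K4me1 only, H3K27ac only or neither within 1 kb of the start site, with the number of genes in parentheses and all protein-coding genes at the top. Pluripotency, ribosomal and translation lists are mostly in the class with both marks (84.6 to 100%). Lineage, formative and primed, and germline lists are mostly in the class with H3K4me1 only (66.7 to 95.5%), and two-cell and olfactory lists in neither.

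To find the widest co-marked domains, overlapping peaks of both marks were joined and ranked by the bases under both. There were 21500 domains with a median of 867 bp under both marks. Few were large, since 279 had over 10 kb and 40 had over 20 kb, and the first 1% (215 domains) held 10.1% of all bases under both marks. A start site lay within 1 kb of 25.6% of all domains and of 40% of that first 1%.

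The widest domain lay over Etv5, with 41.9 kb under both marks in chr16:22386832-22445612. It covered the start site, exons, introns and UTRs of the gene and was formed by 2 H3K4me1 and 8 H3K27ac peaks. The next, with 35.7 kb in chr12:87812300-87861655, covered the 3′ part of Esrrb, an orphan nuclear receptor of naive pluripotency, 110 kb from the annotated start site, and was 1 H3K4me1 peak with 10 H3K27ac peaks. Sall1, a zinc finger transcription factor, followed with 34.0 kb in chr8:91520700-91572637, and its domain covered the whole gene and the sequence beyond its 3′ end. Tns3, a tensin of focal adhesions, had 33.8 kb in chr11:8460714-8506374, 58.2 kb inside the gene. Mreg, a regulator of melanosomes, had 32.4 kb in chr1:72241996-72296992 across its start site. Usp7, a deubiquitinase, had 32 kb in chr16:8743105-8791898, starting 503 bp into the gene.

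**Figure D5:**
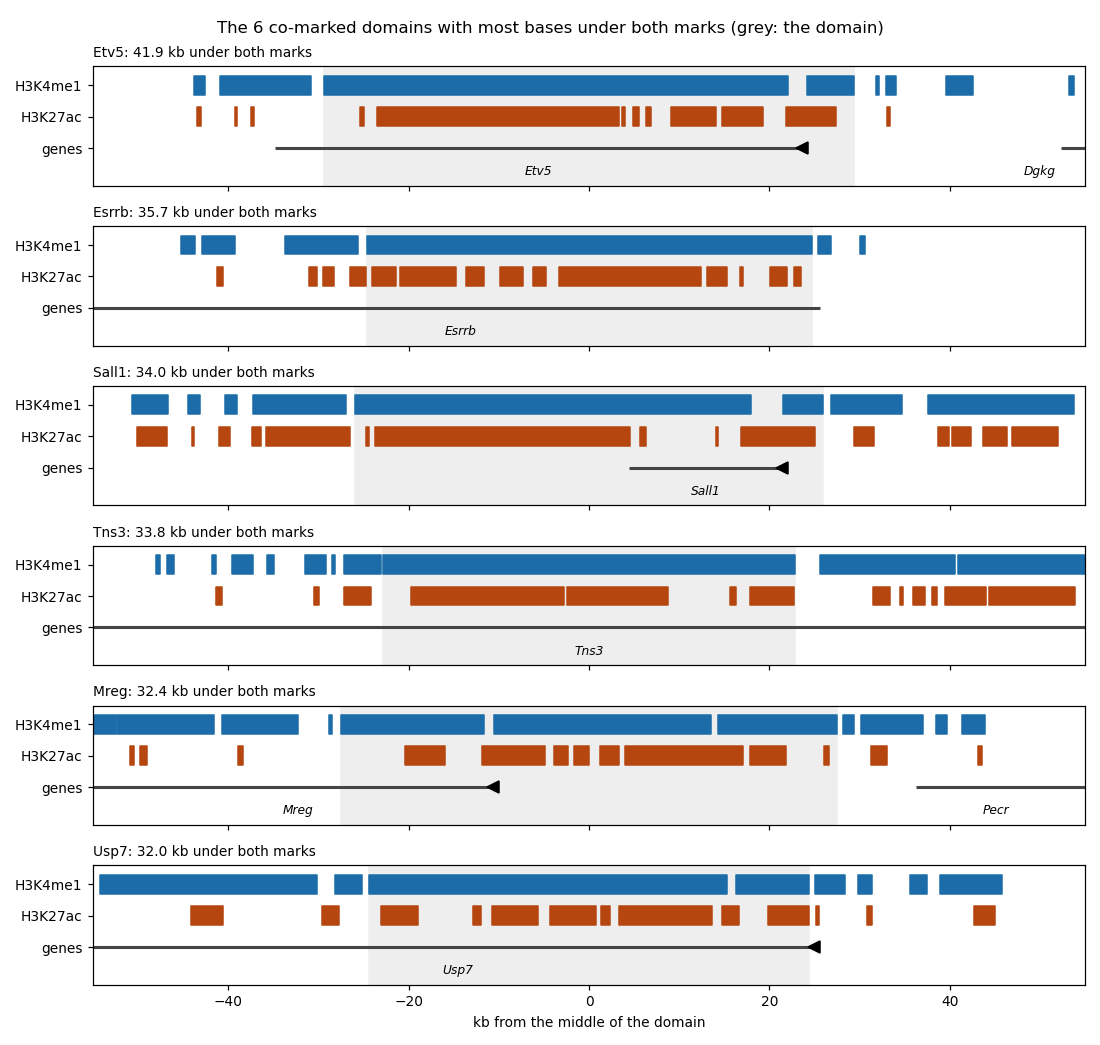
Peaks of both marks around the 6 domains with most bases under both marks, in kb from the middle of the domain, with genes as lines and start sites as arrowheads pointing in the direction of transcription. H3K4me1 forms 1 to 3 long peaks in each domain, with 4 to 10 H3K27ac peaks among them, and the gaps in H3K4me1 at the start sites of Etv5 and Sall1 can be seen.

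The other 9 of the first 15 had 27.3 to 31.4 kb under both marks. They included domains over Zfp532 (31.4 kb), inside Pitpnc1, which encodes a phosphatidylinositol transfer protein (31.2 kb), inside Ldlrad3 (30.1 kb) and over 3 genes at once, H2-M5, 2410137M14Rik and Zfp57, where Zfp57 encodes a factor that protects methylation at imprinted loci (29.9 kb). Others lay inside Etl4 (28.6 kb, 289 kb from the nearest start site, Arhgap21), in BC032203 near Rpl7l1 (28.1 kb), inside Myo10, a myosin of filopodia, with Fam134b as the nearest start site (27.6 kb), and over Etnk1, an ethanolamine kinase (27.3 kb). The 15th domain had 27338 bp and the 16th, in Rbpms, 26548 bp, so the list has no natural end there. The first 15 included 7 within 1 kb of a start site. A nearest start site is a position and not an assignment of a target gene.

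The order of domains depended on the measure. Only Etv5 and Sall1 stayed among the first 15 under each of 3 other rankings. Ranked by the widest unbroken stretch under both marks, Sall1 came first with 28.3 kb, Etv5 next with 26.9 kb and the domain in Etl4 after it with 26.8 kb, and 5 of the 15 stayed. Ranked by whole width, 8 stayed, and the first was over Jarid2, 83.7 kb wide in chr13:44828098-44911787 but with 11.7 kb under both marks.

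The Esrrb domain also held the short sequence that estrogen-related receptors bind. TCAAGGTCA, on either strand, occurred 7 times in the 49.4 kb of the domain and 6 of these were under both marks. Of all bases of the domain 72.4% were under both marks, so 6 of 7 is near what that share gives. In the genome the sequence was in 1.07% of windows of 500 bp. Counts for other domains are not given here. The occurrence nearest its middle is shown with the bases around it (chr12:87842641-87842701, minus strand, motif in capitals).
Esrrb domain: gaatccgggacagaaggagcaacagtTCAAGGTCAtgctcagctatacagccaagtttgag
A match of letters is a description of the sequence and does not show binding.

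Clustering differed between the classes. With peaks of a class joined over gaps up to the usual stitching distance of enhancer clusters, 68.4% of co-marked H3K27ac peaks, 61.6% of co-marked H3K4me1 peaks, 79.7% of H3K4me1-alone peaks and 13.2% of H3K27ac-alone peaks had a neighbour of their class. The median gap to the next peak of the class was 13596, 19678, 8484 and 196467 bp in that order. These values follow the number of peaks in a class as well as their placement, and the 2 were not separated. For co-marked H3K27ac peaks the share was 52.1% with gaps of up to 5 kb and 79.6% with up to 25 kb.

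The 5 clusters with most co-marked H3K27ac peaks each spanned 1 to 3 annotated start sites. The first held 32 peaks in 150 kb over Pitpnc1 and Psmd12 (chr11:107196399-107346497), with 58.5 kb under both marks. The next held 28 peaks over Reep3 and Jmjd1c, which encodes a histone demethylase, and had 43.2 kb under both marks. Msi2, an RNA-binding protein of stem cells, and Sipa1l3 had 26 each, with 43.1 and 49.3 kb. The cluster at Tns3 had 25 peaks and the most bases under both marks of the 5, 66.8 kb. By nearest start site, Arhgap21 had most co-marked H3K27ac peaks (63), followed by Tbl1xr1 (50), Msi2 (42), Jmjd1c (36) and Jarid2 (36). Per 100 kb of sequence nearest to the gene, Msi2 had 13.6, Arhgap21 9.73 and Tbl1xr1 2.52, since the last has 1983 kb to itself.

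The largest clusters of H3K4me1 alone spanned more start sites. The first 5 held 35 to 42 peaks in 183 to 250 kb and spanned 7 to 15 start sites each, more than the 5 co-marked H3K27ac clusters above. Start sites per kb and the remaining clusters were not compared. Over the whole classes, 16.5% of H3K4me1-alone and 17.8% of co-marked H3K27ac peaks lay at a start site. The first, around Ube2o, had 42 peaks, 9 start sites and 8.38 kb under both marks. The others were around Bsn (39 peaks), Tsks (38), Prkcsh (36, with 0.374 kb under both marks) and Fads6 (35). By nearest start site, Vrk1 (59), Pard3, a polarity protein (56), and the zinc finger gene Zfhx3 (52) had most H3K4me1-alone peaks. Clusters of H3K27ac alone held at most 5 peaks, and 2 of the first 5 lay at Sfi1.

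The widest H3K4me1 peaks without any H3K27ac lay inside genes, downstream of their start sites. The first was 30.4 kb long, in exons and introns of Larp1, an RNA-binding regulator of translation (chr11:57823911-57854310), and began 1345 bp from the start site, which itself had both marks within 1 kb. Phf17 had 28.8 kb, Tle4, a Groucho corepressor, 26.3 kb, Cdyl, a chromodomain corepressor, 25.3 kb in an intron, and Ube2n, a ubiquitin-conjugating enzyme, 24.1 kb in an intron from 927 bp after the start site. Each of these exceeded the 5 widest H3K27ac-alone peaks by far, which lay in Cul4a (3.51 kb), near Trim24 (3.16 kb), in Nod1 (3.01 kb), far from Pet2 on chromosome X (2.71 kb) and in Lrig2 (2.63 kb). All 5 of the latter were over 1 kb from a start site. The sequence of the Nod1 and Pet2 peaks was repeated, meaning that at least 3 of 5 words of 32 bases taken along the peak had another exact copy in the genome.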

How the data were processed

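H3K4me1 and H3K27ac were profiled by ChIP-seq in 2 D-EPSC samples per mark, with 1 input sample. According to the submitters' notes and the study's methods, reads were checked with FastQC 0.10.1, trimmed with Trim Galore 0.6.3 and cutadapt, aligned to mm9 with Bowtie2 2.3.5 and sorted with SAMtools 1.10, and broad peaks were called with MACS against input. The thresholds of the calls and the way in which the 2 samples per mark were combined are not given in the sources used here. Each deposited file holds peak positions and names, with no score, count or signal, so read depth is unknown, and it limits how many and how wide peaks are called. Differences between the marks can also follow antibody and depth, and this was not tested.

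Groups came from the sample labels. The code was checked base by base on simulated peak lists. Start sites were the outermost 5′ ends of 22350 protein-coding genes of GENCODE M1 (22322 distinct positions on the 20 chromosomes with peaks), and a peak or gene counted as at a start site within 1 kb. Coordinates are 1-based on mm9, and sequences were read from NCBIM37, the same build. Observed over expected CpG was computed in the sequence around each start site. Of 610 symbols in 22 gene lists, 557 were found, 16 of them under an older symbol. Shares carry exact (Clopper-Pearson) 95% intervals and medians binomial order-statistic intervals. No test between groups was possible with 1 list per mark. Python 3.11.15, numpy 2.4.6, pandas 2.3.3, scipy 1.17.1 and matplotlib 3.10.9 were used.

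The members and gene lists were chosen with earlier results of these data known. Named were the 15 domains with most bases under both marks, the 5 clusters with most co-marked H3K27ac or lone H3K4me1 peaks, the 5 widest lone peaks of each mark, the 5 genes with most peaks of each class, the up to 4 members of each list with most bases under both marks, and members with neither mark where the rest of the list had both. Other list members named are examples or exceptions chosen after their values were seen. The regions that lead other rankings were chosen then too, as were the width steps, CpG classes, motifs, repeat check, H3K27ac-alone clusters and first-base counts. Alternatives were a stricter and a looser overlap, narrower sets of peaks, joined peaks, autosomes, other windows and other cluster gaps. Some items that this rule names are not reported here.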

Additional observations from a re-analysis of the deposited data

How the results depend on the processing

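No paired analysis was possible because each mark has 1 peak list for both samples, and leaving out a sample could not be run for the same reason. With the overlap of at least 50% of the peak, the co-marked share was 8.57% of H3K4me1 and 71.1% of H3K27ac peaks, the width differences were 1.12 and 0.33 (log2) and the start-site differences -1.72 and -43.2 percentage points, so the first of these turned. With the other mark within 1 kb the same values were 29.8%, 93.1%, 1.28, 0.88, 25 and 21.8, so the last turned. With peaks of at least 500 bp they were 21.1%, 86.9%, 1.22, 0.76, 9.52 and -21.4, with the widest 50% of peaks 24.4%, 83.6%, 0.87, 0.67, 3.38 and -32.1, and with peaks joined over 1 kb 24%, 85.3%, 1.63, 1.03, 14 and -14.8. The 2 start-site differences were 7.47 and -22.6 with start sites widened by 500 bp and 9.73 and -20.6 with 2500 bp. The cause of these moves was not tested beyond what each setting does by construction.

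Start sites with both marks made up 25.2% with 500 bp, 37.3% with 2500 bp, 27% with peaks of at least 500 bp, 18% with the widest 50% of peaks, 35.3% on chromosomes 1 to 19 and 24.8% with all genes of the annotation. Clustered co-marked H3K27ac peaks were 60.8% with peaks of at least 500 bp, 53.4% with the widest 50%, 60.2% with joined peaks, 52.1% over gaps of 5 kb and 79.6% over 25 kb. Of the first 15 domains 8 stayed by whole width, 5 by unbroken stretch and 10 with joined peaks. In all, 13 of these values stayed within their counting interval or within 1.5 times of a count, 41 moved beyond it and 2 turned. Under the alternatives added after the data were seen (for list counts, H3K4me1-only start sites and flanks), 147 values stayed and 33 moved. With windows of 500 bp, both marks were found at 10 of the Polycomb, 8 of the acetylation, 8 of the translation and 2 of the formative genes, while with 2500 bp the neural list had 2. With the widest 50% of peaks, both marks were at 6 of the Wnt, 2 of the formative and 1 of the germline genes, and H3K4me1 only at 4 of the germline genes. H3K4me1 on both sides of lone H3K27ac at start sites was 62.1% within 500 bp and 93.2% within 2000 bp. Read depth is unknown, so a site without a peak may still carry a mark below the calling threshold.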

Other observations

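Short sequence motifs were counted in 500 bp windows at the middle of peaks, on either strand, beside their share in all 5111018 windows of that size in the genome. Over 1 kb from start sites, the sequence TCAAGGTCA of estrogen-related receptors was in 2.65% of co-marked H3K27ac windows and 2.6% of H3K4me1-alone windows, against 1.07% of all windows, and in 0.835% of H3K27ac-alone windows. The KLF sequence GGGTGTGG was in 6.33% of the co-marked H3K27ac, 8.89% of the H3K4me1-alone and 3.03% of the H3K27ac-alone windows, against 2.98% of all windows. Distal H3K27ac without H3K4me1 thus held these 2 pluripotency-related sequences about as often as the genome at large. Other sequences were more frequent in it than in the genome. The AP-1 sequence TGACTCA was in 15.6% of its windows, beside 13.7% of co-marked H3K27ac windows, 9.7% of H3K4me1-alone windows and 7.68% of all windows. The NRF1 sequence was in 1.3% (0.549% of all windows), the ETS sequence in 0.68% (0.308%), the E-box CACGTG in 6.4% (4.83%) and the CREB sequence TGACGTCA in 0.371% (0.273%). Except for AP-1, these were more frequent still in distal co-marked H3K27ac and H3K4me1-alone windows. The octamer ATGCAAAT was in 3.12% of co-marked H3K27ac, 4.47% of H3K4me1-alone and 2.16% of H3K27ac-alone windows, beside 4.36% of all windows. At start sites the ETS sequence CCGGAAGT was in 7.54% of co-marked and 9.73% of lone H3K27ac windows, beside 0.308% of all windows, and the NRF1 sequence GCGCATGC was in 5.06% and 4.57%, beside 0.549%. The windows differ in base composition and this was not adjusted for.

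Distal H3K27ac without H3K4me1 also held more repeated sequence than the other distal classes, at shares only slightly above those of the genome at large. At least 3 of 5 words of 32 bases had another exact copy in 17.9% of its peaks, and 7.91% reached 100 copies or more. The shares were 5.39% and 1% for distal co-marked H3K27ac peaks and 3.83% and 0.712% for distal H3K4me1-alone peaks, beside 15% and 6.26% of positions taken every 25 kb along the genome. How far multiply placed reads contribute to these peaks was not tested.

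Chromosome X stood outside the range of the autosomes in several measures, though not in all. The median width of its co-marked H3K27ac peaks, 1058 bp, was within the autosomal range of 883 to 1076 bp. Its 486 H3K27ac peaks overlapped H3K4me1 in 65.4% of cases, against 81.5 to 86% on the autosomes, and its 1837 H3K4me1 peaks overlapped H3K27ac in 16.3%, against 19.6 to 25.8%. Of its 168 H3K27ac-alone peaks 58.9% lay at start sites, against 30.7 to 53.9%. Lone H3K4me1 peaks on the chromosome had a median width of 759 bp, against 889 to 1004 bp.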
